A study of Mus musculus with 17 samples.

Results

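The elastic fibre and artery wall matrix genes examined here are Eln, Fbln5, Fbn1, Lox, Loxl1, Mfap4, Efemp2, Ltbp4, Fn1 and Mgp, 10 of the 21640 genes of the count table, taken by symbol. Their RNA was compared over 4 groups of 17 bulk RNA-seq libraries from mouse brain. Ai47 aSMCs (6 libraries) are arteriolar smooth muscle cells sorted as EGFP-positive cells from SMACreER:Ai47 mice, in which the smooth muscle actin promoter drives a tamoxifen-inducible Cre. The study's methods give tamoxifen to adults at least 1 month before every bulk RNA-seq experiment. For the Ai47 aSMCs they also describe vessels enriched before dissociation, and removal of cells carrying the endothelial protein CD31 or the immune protein CD45. Ai14 aSMCs (2 libraries, numbered 7 and 8) are tdTomato-positive cells of SMACreER:Ai14 mice, and astrocytes (3 libraries) are tdTomato-positive cortical cells of hGFAPCreER:Ai14 mice. The sources used here do not tie any negative selection to these 2 groups. Cortex (6 libraries) is homogenate labelled WT. The reporter marks every cell in which the promoter was active, so pericytes or other mural cells with actin expression can be among the sorted cells.

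Elastic fibres give arteries their recoil. Smooth muscle cells and fibroblasts secrete tropoelastin, the product of Eln, and fibulin-4 (Efemp2), fibulin-5 (Fbln5) and LTBP-4 (Ltbp4) bring it onto microfibrils of fibrillin-1 (Fbn1), where lysyl oxidases (Lox, Loxl1) crosslink it. Mfap4 binds elastin and microfibrils, fibronectin (Fn1) is a matrix glycoprotein on which other fibres assemble, and matrix Gla protein (Mgp) is an inhibitor of artery calcification.

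Total counts ran from 41499087 to 53643624 per library in Ai47 aSMCs, 14870507 to 14979228 in Ai14 aSMCs, 5397905 to 7288036 in cortex and 4537137 to 7390630 in astrocytes. The mitochondrial share of counts was 0.214% to 0.559% in Ai47 aSMCs, 16.8% to 17.6% in Ai14 aSMCs, 35.7% to 73.0% in cortex and 10.7% to 12.5% in astrocytes. The scaling factors by trimmed mean of M values (TMM) were 0.423 to 0.551 in Ai47 aSMCs, 2.21 in both Ai14 aSMC libraries, 0.697 to 1.87 in cortex and 1.52 to 2.69 in astrocytes, so the levels rest heavily on the scaling. The 6 columns of Ai47 aSMCs also shared values. Of 13886 genes with at least 10 counts in a column, 7.81% had the same count in 4 or more of the 6, against 4.30% in cortex. A repeated count of 0 is included, so these shares also hold genes without counts in most columns. Spp1 had 573 or 574 counts in each of the 6. Of 9936 genes with at least 100 counts in an Ai47 column, 0.725% differed by at most 5% between the highest and the lowest column. The shared values thus cover a part of the genes. Columns that share reads are not independent, so every test of Ai47 aSMCs was also run with these columns as 1 library. In that fit, and where 1 of the 2 Ai14 libraries was left out, the lone library was assumed to vary like the other groups, and a lost call does not show a smaller difference. The study's legends count its sorted aSMC and cortex samples in mice, but nothing in the labels ties a library to an animal, and p-values measure the spread between these libraries.

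The sorted cells were checked against their markers. The summed level of 11 contractile smooth muscle genes was 6340 to 7500 CPM (counts scaled to a common library size) in Ai47 aSMCs and 11000 to 11700 in Ai14 aSMCs, against 48.2 to 189 in cortex. Astrocytes went against their label in part: Aqp4 was at 460 to 564 CPM against 19.6 to 136 in cortex, but the summed level of 10 astrocyte markers was 1260 to 1920 CPM in astrocytes and 3400 to 18500 in cortex, and Gjb6 had no counts. That sum was 1190 to 1890 CPM in Ai47 aSMCs and 177 to 253 in Ai14 aSMCs. The like sums of Ai47 aSMCs and astrocytes did not come from like levels of the single markers. Of the 10, 3 were called higher and 6 lower in Ai47 aSMCs than in astrocytes, where 26.1% and 23.8% of all genes were. Gfap had 0 to 3 counts and Aqp4 0 to 97 in an Ai47 library. Of these 10 markers, 2 were called higher and 2 lower in astrocytes than in cortex, where 14.6% and 19.8% of all genes were. In the same 3 astrocyte libraries, 8 ependymal and choroid plexus markers summed to 1810, 2820 and 806 CPM, against 13.2 to 1690 in cortex, and the ciliary gene Foxj1 was at 237 to 524 CPM against 0 to 1.43. These libraries are therefore called the libraries labelled astrocyte where a direction rests on them.

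**Figure D1:**
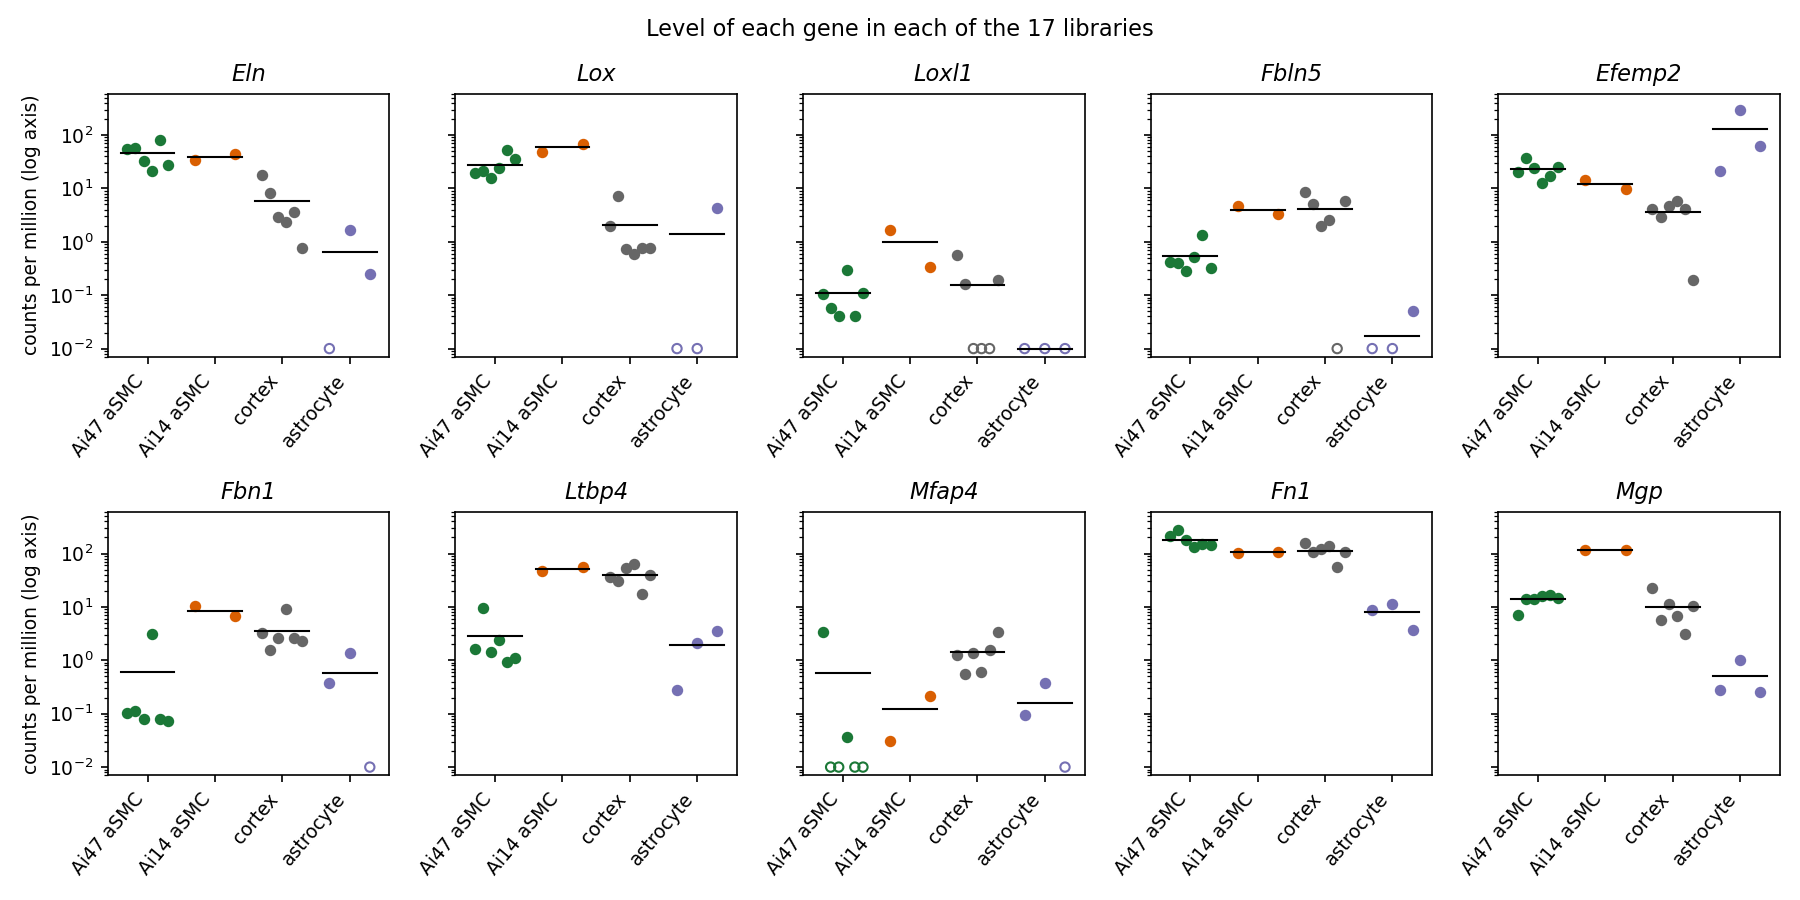
Level of each of the 10 genes in each library, in CPM after TMM scaling over all 17 libraries, on a log axis. Points are libraries, black lines are group means, and open circles on the lowest line are libraries with no counts, where a mean of 0 is drawn too. Eln and Lox sit higher in all 8 aSMC libraries than in all 6 cortex libraries, and Efemp2 is highest in a library labelled astrocyte. Between the 2 aSMC groups, Ltbp4, Fbn1, Mgp, Fbln5 and Loxl1 (lower in Ai47) and Fn1 (higher in Ai47) do not overlap. The share of all genes without such overlap was not counted.

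Eln, which encodes the elastic core itself, was high in both aSMC groups. Its level was 21.1, 43.4 and 80.4 CPM (lowest, median, highest of 6) in Ai47 aSMCs, 33.4 and 45.1 CPM in Ai14 aSMCs, 0.756, 3.24 and 17.6 CPM in cortex, and 0, 1.65 and 0.253 CPM in the libraries labelled astrocyte. The aSMC groups overlapped each other, and every aSMC library was above every cortex library. Against cortex, Eln was 8.57-fold higher in Ai47 aSMCs (log2 fold change 3.10 ± 0.645 SE, adjusted p = 0.000577, edgeR quasi-likelihood test). With library totals in place of TMM scaling it was 1.26 and no longer called (adjusted p = 0.164). The difference of Ai14 aSMCs from cortex was 2.73 ± 0.973 on the log2 scale with an adjusted p of 0.109. Cortex replicates 1 and 2 held 154 and 102 of the 309 Eln counts of the 6 cortex libraries, and without replicate 1 the log2 fold change in Ai47 aSMCs was 3.83.

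Lox, the crosslinking enzyme, had the largest fold over cortex of the 9 tested genes in both aSMC groups. It stood at 15.5, 22.4 and 52.4 CPM (lowest, median, highest) in Ai47 aSMCs, at 49.0 and 69.3 CPM in Ai14 aSMCs, and at 0.593, 0.766 and 7.32 CPM in cortex. Of the libraries labelled astrocyte, 2 had no Lox counts and the other had 84, which is 4.25 CPM. Lox was 14.9-fold higher in Ai47 aSMCs than in cortex (log2 3.90 ± 0.683, adjusted p = 0.000118) and 28.4-fold higher in Ai14 aSMCs (log2 4.83 ± 1.18, adjusted p = 0.0165). With 1 of the 2 Ai14 libraries left out, the second log2 fold change was 4.96 (adjusted p = 0.078) or 4.40 (adjusted p = 0.163). Cortex replicate 2 stood apart in Lox, and without it the log2 fold changes were 4.95 in Ai47 and 5.66 in Ai14 aSMCs. With library totals alone Lox in Ai47 aSMCs was at 2.05 (adjusted p = 0.0466). Its relative Loxl1 was nearly absent: 1 to 8 counts per library in Ai47 aSMCs, 55 and 11 in Ai14 aSMCs, 0 to 5 in cortex and 0 in the 3 libraries labelled astrocyte. Loxl1 did not pass the filter on low counts and was not tested. A count of 0 over those 3 libraries allows up to 0.0782 CPM, so the mean of Ai14 aSMCs, 1.0 CPM, was at least 12.8-fold higher if taken as exact. The 2 Ai14 libraries behind that mean stood far apart, at 1.67 and 0.333 CPM.

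The 2 short fibulins that carry tropoelastin went opposite ways in Ai47 aSMCs. Efemp2 (fibulin-4) was at 12.8, 22.1 and 37.3 CPM (lowest, median, highest) in Ai47 aSMCs, 14.1 and 9.94 CPM in Ai14 aSMCs and 0.189, 4.12 and 5.74 CPM in cortex, without overlap between either aSMC group and cortex. Fbln5 (fibulin-5) was at 0.284, 0.409 and 1.33 CPM in Ai47 aSMCs, 4.78 and 3.27 CPM in Ai14 aSMCs, and 0, 3.83 and 8.67 CPM in cortex. The 6 Ai47 aSMC libraries therefore held 7 to 33 Fbln5 counts each, where the Ai14 libraries held 157 and 108. Against cortex, Efemp2 was 6.69-fold higher (log2 2.74 ± 0.616, adjusted p = 0.0011) and Fbln5 6.70-fold lower (log2 -2.75 ± 0.845, adjusted p = 0.0104) in Ai47 aSMCs. The Efemp2 call was lost with library totals (log2 1.32, adjusted p = 0.0995), and with the columns as 1 library Efemp2 was at 2.82 (adjusted p = 0.0605) and Fbln5 at -2.58 (adjusted p = 0.403). In Ai14 aSMCs the differences from cortex were 1.73 ± 0.833 for Efemp2 (adjusted p = 0.248) and -0.01 ± 1.27 for Fbln5 (adjusted p = 1). Within a library, where scaling has no part, counts per kilobase of Efemp2 were 23.8 to 171 times those of Fbln5 in Ai47 aSMCs, 5.40 and 5.54 times in Ai14 aSMCs, and 0.0589 to 4.22 times in the 5 cortex libraries with Fbln5 counts.

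The libraries labelled astrocyte had the highest mean Efemp2 of the 4 groups. Its level there was 21.3, 299 and 61.9 CPM, each above every cortex library, and 35.2-fold higher than in cortex (log2 5.14 ± 0.798, adjusted p = 0.000106). Without replicate 2 the log2 fold change was 3.36 (adjusted p = 0.00249). Ependymal and choroid plexus markers summed to 1810, 2820 and 806 CPM in replicates 1, 2 and 3. What part those cells had in the Efemp2 level was not tested. Efemp2 shares 173 bases of exon with Mus81 on the opposite strand, but Mus81 had no counts in these 3 libraries. Mus81 had 29 to 752 counts in the Ai47 libraries, 82 and 124 in Ai14 aSMCs and 0 to 5 in cortex. What part of the Efemp2 level in aSMCs came from reads of this overlap was not tested. Fbln5 was represented by a single count in the 3 libraries labelled astrocyte together, so that cortex exceeded them by a ratio of 176 (95% interval by counting 31.2 to 6990, adjusted p = 0.0038).

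Ltbp4 and Fbn1 encode partners of the microfibril scaffold, and in both the 2 aSMC groups did not overlap, though the test between these groups was passed by Ltbp4 alone. Ltbp4 was at 0.930, 1.54 and 9.40 CPM (lowest, median, highest) in Ai47 aSMCs, at 47.7 and 56.3 CPM in Ai14 aSMCs, at 17.3, 37.8 and 63.3 CPM in cortex and at 0.281, 2.16 and 3.49 CPM in the libraries labelled astrocyte. No Ai47 library reached the lowest Ai14 or cortex library. Ltbp4 was 13.2-fold lower in Ai47 aSMCs than in cortex (log2 -3.72 ± 0.654, adjusted p = 0.000121) and 18.4-fold lower than in Ai14 aSMCs (log2 -4.20 ± 0.853, adjusted p = 0.00127). Without Ai47 replicate 2 the difference from cortex was -4.64. It passed the threshold under all 11 other settings tried, while that from Ai14 aSMCs was -3.84 with an adjusted p of 0.237 with the 6 Ai47 columns as 1 library. In Ai14 aSMCs, Ltbp4 differed from cortex by 0.38 ± 0.911 (adjusted p = 0.886), and it was at -0.15 with median-of-ratios size factors.

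Fbn1 had 2 counts in each of 5 Ai47 libraries and 85 in replicate 4, or 0.0728, 0.0930 and 3.13 CPM (lowest, median, highest). It was at 10.3 and 6.70 CPM in Ai14 aSMCs, 1.59, 2.60 and 9.10 CPM in cortex, and 0.375, 1.4 and 0 CPM in the libraries labelled astrocyte. Replicate 4 alone made the Ai47 group overlap cortex. Fbn1 was 5.85-fold lower in Ai47 aSMCs than in cortex (log2 -2.55 ± 1.04, adjusted p = 0.0449). This call was lost when any library except Ai47 replicate 4 was left out (adjusted p 0.0557 to 0.145). Without Ai47 replicate 4 the log2 fold change was -5.13 (adjusted p = 3.86e-05), a p-value that rests on 5 columns with the same 2 counts. With the Ai47 columns as 1 library the log2 fold change from cortex was -2.21. Against Ai14 aSMCs the difference was -3.81 ± 1.41 (adjusted p = 0.0515). Mfap4 was the scarcest of the tested genes, with 65 counts in Ai47 replicate 1 and 0 or 1 in the other 5, 1 and 7 in Ai14 aSMCs, 3 to 18 in cortex and 0 to 3 in the libraries labelled astrocyte. None of its differences passed the threshold (adjusted p 0.247 to 0.967), and the sign of its difference of Ai47 aSMCs from Ai14 aSMCs and from the libraries labelled astrocyte turned without replicate 1. Against cortex it was at -1.11, and at -5.11 with the replicate numbers as a block (adjusted p = 0.0155).

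Upstream sequence was at hand for 4 of the 10 genes, in RefSeq promoters of GRCm38.p6. Shown are the bases upstream of the first listed start of Fbln5 and Ltbp4, which were lower in Ai47 aSMCs than in cortex, and of Efemp2, which was higher. Each is written 5′ to 3′ on the gene's strand, with matches to the GC box GGGCGG, on either strand (CCGCCC), in capitals. The Ltbp4 stretch stops where a longer annotated exon begins, 80 bases before the listed start.
Fbln5, chr12:101819120-101819369, minus strand: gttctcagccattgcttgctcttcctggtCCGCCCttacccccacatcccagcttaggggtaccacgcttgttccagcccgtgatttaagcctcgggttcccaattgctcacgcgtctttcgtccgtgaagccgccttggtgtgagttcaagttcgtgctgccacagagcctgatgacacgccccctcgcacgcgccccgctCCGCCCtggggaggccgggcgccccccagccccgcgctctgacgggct
Ltbp4, chr7:27337693-27337862, minus strand: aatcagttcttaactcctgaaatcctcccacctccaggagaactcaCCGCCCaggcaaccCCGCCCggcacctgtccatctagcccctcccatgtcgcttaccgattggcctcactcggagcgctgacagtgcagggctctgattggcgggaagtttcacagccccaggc
Efemp2, chr19:5473696-5473945, plus strand: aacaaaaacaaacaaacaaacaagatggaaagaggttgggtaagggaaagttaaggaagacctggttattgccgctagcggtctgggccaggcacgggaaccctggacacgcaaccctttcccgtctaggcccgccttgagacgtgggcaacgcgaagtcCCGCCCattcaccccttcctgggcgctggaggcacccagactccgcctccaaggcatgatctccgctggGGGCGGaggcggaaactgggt

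Over the full 250 upstream bases the GC box occurred 2 times in Fbln5, 3 times in Ltbp4 and 2 times in Efemp2, and 33.0% of 27025 promoters held it. The TATA box TATAAA, in 13.0% of promoters, and the MCAT element CATTCC, in 12.6%, were in none of the 3 windows. The CCAAT box CCAAT occurred 1 time in Fbln5, 2 times in Ltbp4 and 0 times in Efemp2, and 34.5% of promoters held it. The SMAD box CAGAC occurred 2 times in Efemp2 and 0 times in the other two, against 42.2% of promoters. The E-box CANNTG occurred 1 time each in Fbln5 and Ltbp4 and 0 times in Efemp2, against 66.1%. All motifs were searched on both strands, the E-box of Fbln5 overlaps its CCAAT box, and a match is a description of the letters. G and C made up 65.2%, 64.4% and 59.2% of the 3 windows, against a median of 52.0%. Fbn1, also called lower than cortex in Ai47 aSMCs, was the other gene with upstream sequence, which is not shown. Its window held 1 GC box but no CCAAT box, E-box, SMAD box, TATA box or MCAT element.

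Fn1 was the most abundant of the 10 genes in Ai47 aSMCs, by CPM in every library and by the mean CPM per kilobase of exon. Its level was 134, 165 and 275 CPM (lowest, median, highest) in Ai47 aSMCs, 104 and 109 CPM in Ai14 aSMCs, 55.5, 114 and 155 CPM in cortex, and 8.90, 11.3 and 3.74 CPM in the libraries labelled astrocyte. The Ai47 libraries overlapped cortex, and the libraries labelled astrocyte lay below all others. Fn1 was 1.74-fold higher in Ai47 aSMCs than in cortex (log2 0.80 ± 0.299, adjusted p = 0.0302), but -0.72 with library totals in place of TMM (adjusted p = 0.133). The call was also lost without Ai47 replicate 1 or 2 (adjusted p 0.0593 and 0.0847) and without both cortex replicates 1 and 2 (adjusted p = 0.114). A filter of 1 CPM (adjusted p = 0.0603), replicate numbers as a block (adjusted p = 0.06) and 1 fit of all 17 libraries (adjusted p = 0.147) lost it too. With the columns as 1 library the log2 fold change was 0.86. The median of all genes tested in Ai47 aSMCs versus cortex moved from 0.32 to -1.13 between TMM and library totals, and relative to that median Fn1 was at 0.48 and 0.41. Fn1 differed from cortex by -0.10 ± 0.544 in Ai14 aSMCs (adjusted p = 0.958) and was 14.3-fold lower in the libraries labelled astrocyte (log2 -3.84 ± 0.580, adjusted p = 7.96e-05).

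Mgp also differed between the aSMC groups. It was at 7.13, 14.5 and 16.7 CPM (lowest, median, highest) in Ai47 aSMCs, 116 and 117 CPM in Ai14 aSMCs, 3.10, 8.47 and 22.2 CPM in cortex, and 0.281, 1.01 and 0.253 CPM in the libraries labelled astrocyte. Both Ai14 libraries were above every other library, and the Ai47 libraries lay within the range of cortex. Mgp was 11.7-fold higher in Ai14 aSMCs than in cortex (log2 3.55 ± 0.704, adjusted p = 0.00323) and 8.40-fold lower in Ai47 than in Ai14 aSMCs (log2 -3.07 ± 0.702, adjusted p = 0.00319). Without 1 of the 2 Ai14 libraries the first difference was 3.38 or 3.31 (adjusted p 0.073 and 0.0909) and the other -2.73 or -2.65 (adjusted p 0.0752 and 0.08). With the Ai47 columns as 1 library the latter was -2.50 (adjusted p = 0.467). Between Ai47 aSMCs and cortex, Mgp differed by 0.59 ± 0.499 (adjusted p = 0.326), and by -0.93 with library totals (adjusted p = 0.212).

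**Figure D2:**
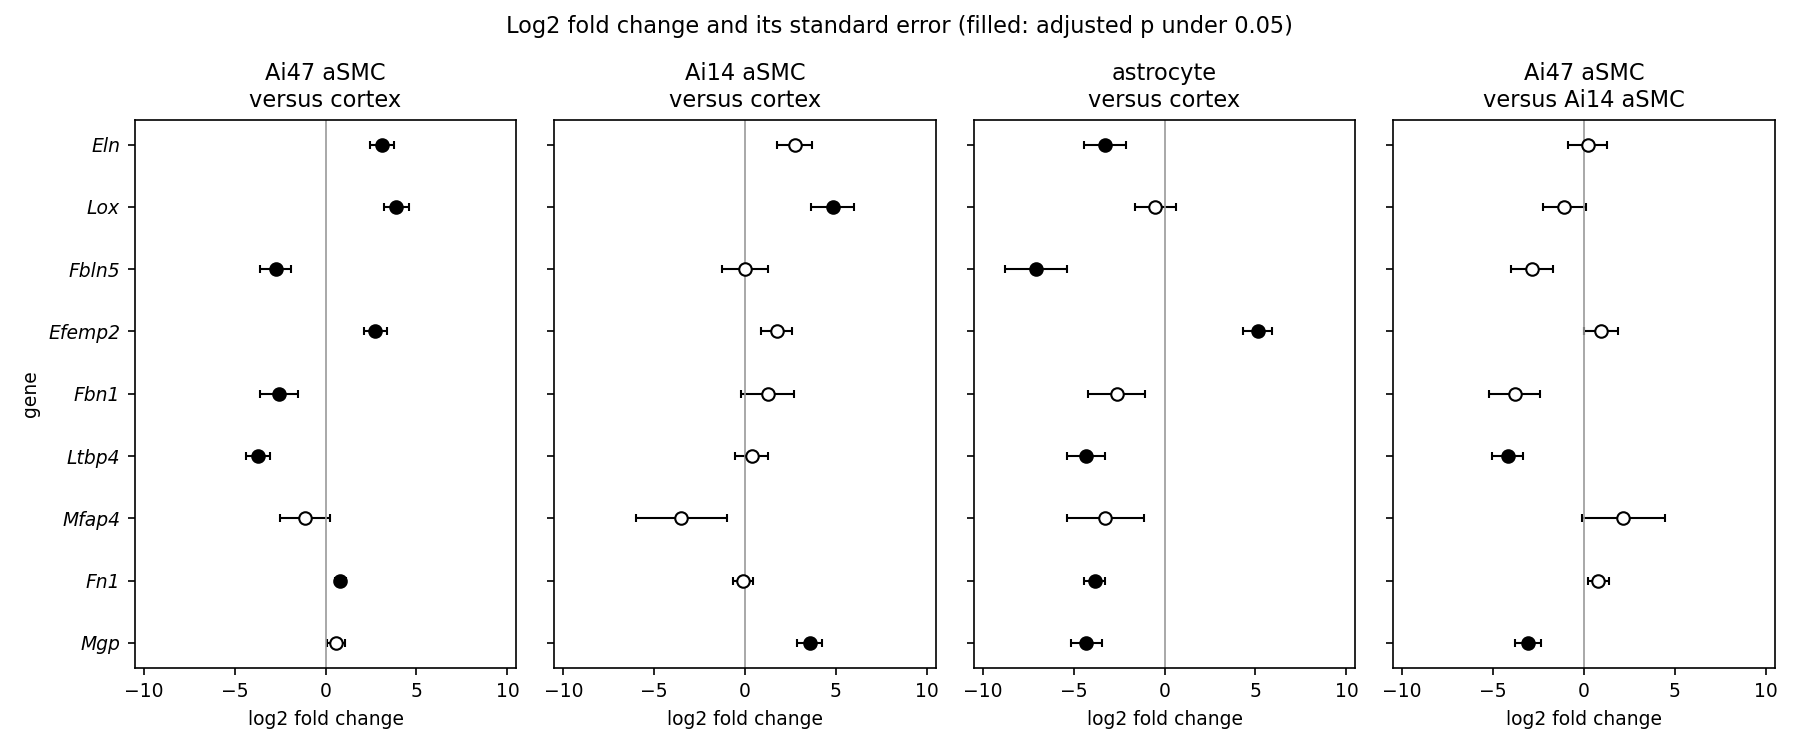
Log2 fold change of the 9 tested genes with its standard error (bars), in 4 comparisons; a filled point has an adjusted p under 0.05. Eln, Lox, Efemp2 and Fn1 lie to the right and Fbln5, Fbn1 and Ltbp4 to the left in Ai47 aSMCs versus cortex, and only Ltbp4 and Mgp are filled between the aSMC groups.

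Counted by comparison, 9 of the 10 genes passed the filter and were tested in both fits. Against cortex, 4 were higher and 3 lower in Ai47 aSMCs, where 58.6% of all 11548 genes tested were called (33.6% higher, 25.0% lower). With the 6 columns as 1 library, Eln and Lox were called higher and Ltbp4 lower, where 18.6% of all genes were called higher and 11.1% lower. With library totals alone, Lox was the only one of the 10 called higher, where 19.7% of all genes were. In Ai14 aSMCs, 2 were higher and 0 lower by edgeR (0 lower at an unadjusted p under 0.05, 0 by DESeq2) against a background of 5.97% of 14927 genes (3.97% higher). Without 1 of the 2 Ai14 libraries this count was 0 higher in either case, where 1.31% and 1.26% of all genes were. The libraries labelled astrocyte had 1 gene higher than cortex (Efemp2) and 5 lower (Fbln5, Ltbp4, Mgp, Fn1, Eln), where 34.5% of genes were called (14.6% higher, 19.8% lower). The Eln call was lost without cortex replicate 1 or without replicate 1 or 3 of the libraries labelled astrocyte (adjusted p 0.0706, 0.0715 and 0.0838). The 3 comparisons share the cortex libraries. The median log2 fold change of the 9 genes was 0.59 in Ai47 aSMCs, 1.25 in Ai14 aSMCs and -3.27 in the libraries labelled astrocyte, and that of all genes 0.32, 0.32 and -0.08. In bulk cortex, fewer cells of a type and less RNA per cell cannot be told apart.

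Between the aSMC groups, 0 genes were higher by edgeR (0 at an unadjusted p under 0.05, 0 by DESeq2) and 2 lower in Ai47 aSMCs (Ltbp4 and Mgp), where 25.6% of all genes were called (9.55% higher, 16.0% lower). With the Ai47 columns as 1 library, edgeR tested all 10 and called 0 (1 at an unadjusted p under 0.05), where 2.78% of all genes were called higher and 0.396% lower. Fbln5 was at -2.86 ± 1.16 (adjusted p = 0.0741, and 0.0378 by DESeq2), Lox at -1.08 ± 1.20, Eln at 0.20 ± 1.08, Efemp2 at 0.92 ± 0.943 and Fn1 at 0.78 ± 0.567. Ai14 aSMCs exceeded the libraries labelled astrocyte in 6 genes (Eln, Fbln5, Ltbp4, Lox, Fn1, Mgp) and fell below them in 1 (Efemp2, adjusted p = 0.0473), where 17.1% were called (13.6% higher, 3.56% lower). Ai47 aSMCs exceeded them in 5 genes (Eln, Fbln5, Lox, Fn1, Mgp) and fell below in Efemp2 (adjusted p = 0.0092), where 49.9% were called (26.1% higher, 23.8% lower). Without the second astrocyte library, Efemp2 was no longer called in either (log2 -1.89 and -0.57, adjusted p 0.203 and 0.563). In Ai14 aSMCs, Efemp2 and Lox lost their calls without 1 of the 2 Ai14 libraries, at -3.83 or -3.38 for Efemp2 and 5.50 or 4.94 for Lox (adjusted p 0.0541 to 0.255). In Ai47 aSMCs, Fbln5 lost its call without the first or the second library labelled astrocyte (log2 4.05 and 4.17, adjusted p 0.0632 and 0.0515). The widest of these differences was Mgp, 231-fold higher in Ai14 aSMCs (log2 7.85 ± 1.08, adjusted p = 4.39e-05), and Eln was 64.1-fold higher in Ai14 and 73.8-fold higher in Ai47 aSMCs than in the libraries labelled astrocyte.

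Levels of different genes were compared per kilobase of exon. The summed level of the 10 genes was 45.6 ± 7.99 CPM per kilobase (SD, n = 6) in Ai47 aSMCs, 137 ± 4.6 (n = 2) in Ai14 aSMCs, 28.1 ± 10.2 (n = 6) in cortex and 35.6 ± 40.4 (n = 3) in the libraries labelled astrocyte. In Ai47 aSMCs the largest mean shares were Fn1 (34.2%) and Mgp (26.1%), followed by Efemp2 (13.0%), Lox (12.8%) and Eln (11.9%). Mgp made up 71.5% in Ai14 aSMCs, and Efemp2 89.7% in the libraries labelled astrocyte. Cortex was led by Fn1 (35.5%), Mgp (27.5%) and Ltbp4 (22.5%). Eln was thus 11.9% of the matrix set in Ai47 aSMCs, 3.52% in Ai14 aSMCs and 2.54% in cortex.

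**Figure D3:**
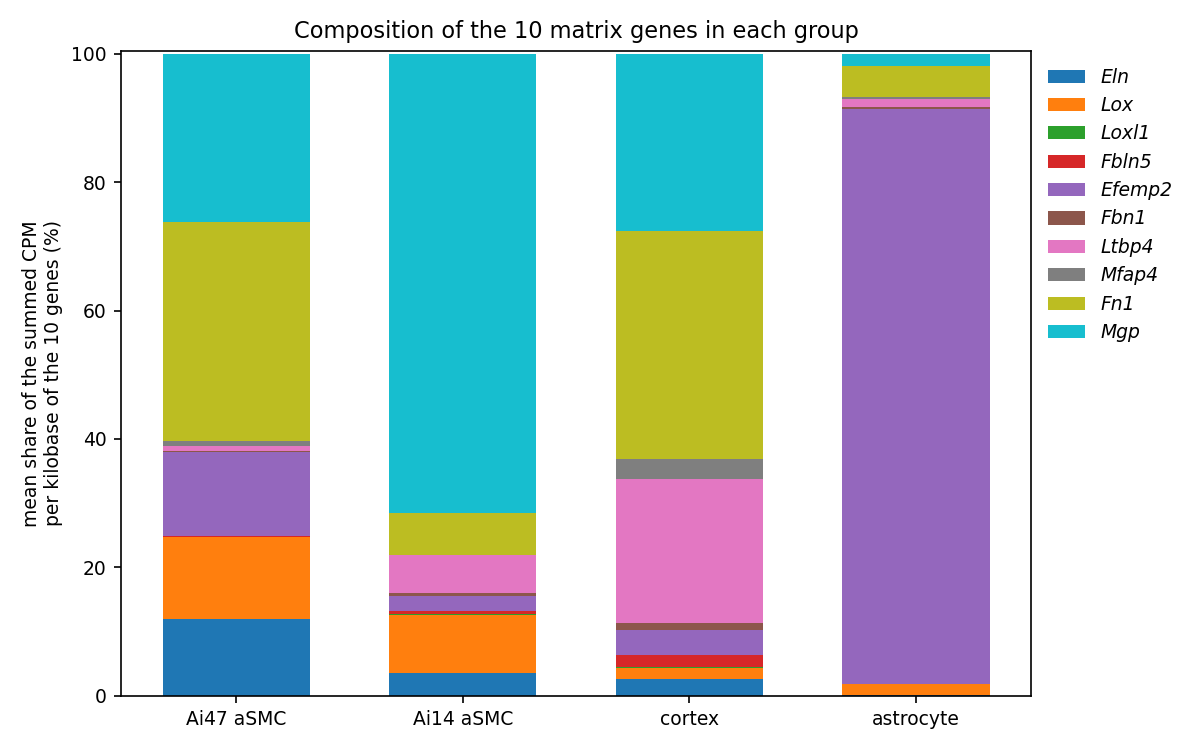
Mean share of each gene in the summed CPM per kilobase of the 10 genes, in percent, in the 4 groups; each bar adds up to the whole set. Mgp fills 71.5% of the bar of Ai14 aSMCs, Efemp2 89.7% of that of the libraries labelled astrocyte, and Ltbp4 22.5% of that of cortex but 0.889% of that of Ai47 aSMCs.

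Ratios within a library do not depend on the scaling. Per kilobase, Eln was 4.76 to 69.0 times Ltbp4 in the 6 Ai47 libraries, 0.559 and 0.639 times in Ai14 aSMCs and 0.0153 to 0.387 times in cortex, so the 3 groups did not overlap. Mgp was 0.334 to 1.20 times Fn1 in Ai47 aSMCs and 0.471 to 1.41 times in cortex, which overlapped, and 11 and 10.6 times in Ai14 aSMCs. Eln relative to Fn1 was 0.227 to 0.775 in Ai47 aSMCs and 0.463 and 0.597 in Ai14 aSMCs, against 0.0101 to 0.163 in cortex. Lox relative to Eln was 0.593 to 2.28 in Ai47 aSMCs, 2.49 and 2.60 in Ai14 aSMCs and 0.187 to 1.69 in cortex.

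**Figure D4:**
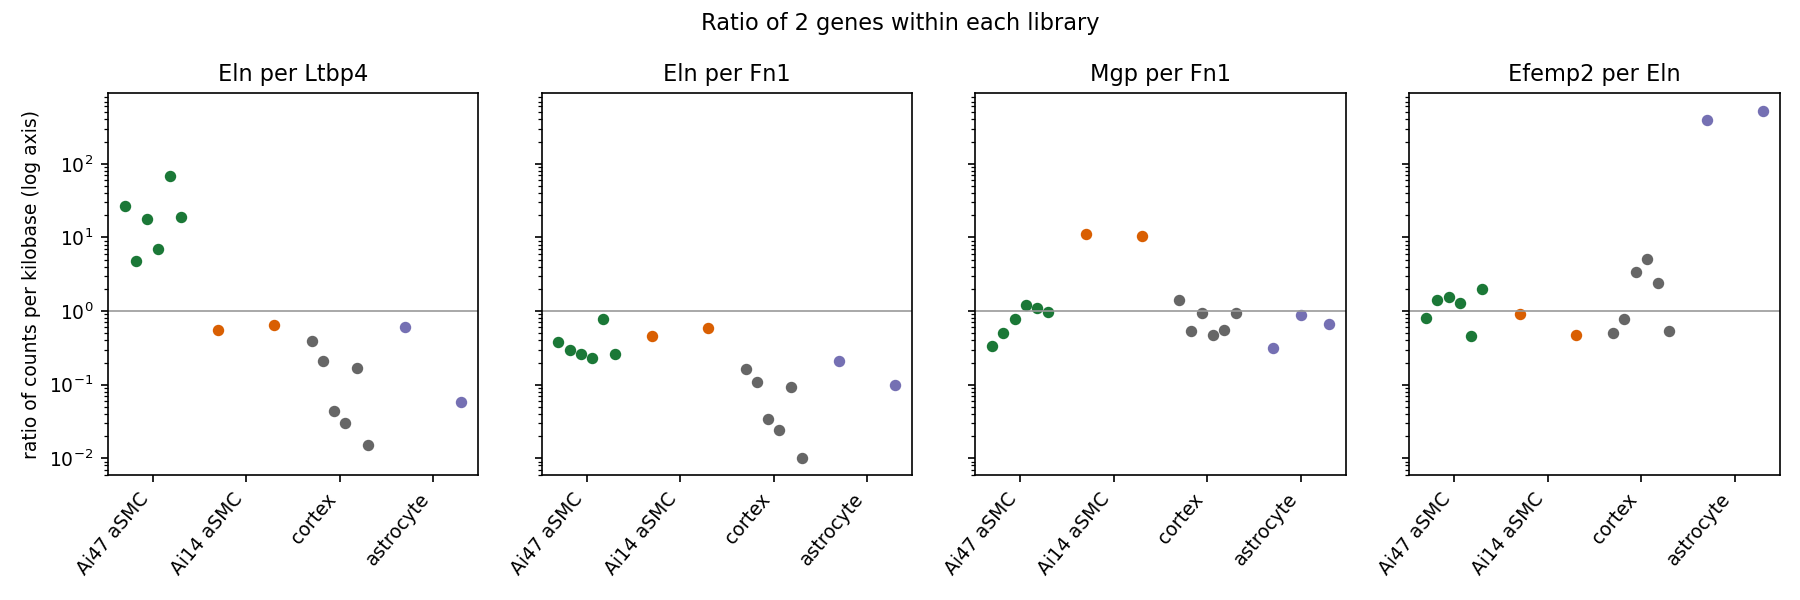
Ratios of the counts per kilobase of 2 genes within each library, on a log axis, with a grey line at equality; libraries in which either gene had no counts are not drawn. Eln per Ltbp4 runs from 4.76 to 69.0 in Ai47 aSMCs and stays below 0.64 in Ai14 aSMCs and cortex, and Mgp per Fn1 is above 10 in Ai14 aSMCs alone.

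The summed level of markers of another matrix-making cell, the fibroblast, was highest in Ai47 aSMCs, mainly through Col1a1. The 9 fibroblast markers summed to 1550 to 2370 CPM in Ai47 aSMCs, 112 and 155 in Ai14 aSMCs, 17 to 44.4 in cortex and 1.87 to 9.93 in the libraries labelled astrocyte. The collagen gene Col1a1, with 39417 to 40086 counts in every Ai47 column, made up most of the Ai47 sum. Of the 6 of these markers tested against cortex, 4 were higher in Ai47 aSMCs (Col1a1, Col1a2, Col3a1 and Pi16) and Pdgfra lower. Of all genes, 33.6% were called higher and 25.0% lower there. Between Ai47 and Ai14 aSMCs, 1 of the 6 was higher and 1 lower, where 9.55% and 16.0% of all genes were. Col1a2 was at 75.4 to 195 CPM in Ai47 aSMCs, 76.9 and 118 in Ai14 aSMCs and 7.74 to 12.9 in cortex, and Col3a1 at 2.10 to 18.5, 29.6 and 31.2, and at most 6.27. Of the defining fibroblast markers, Pdgfra had no counts in Ai47 aSMCs and Lum had at most 1 in a library. Dcn was at 0.764 to 19.1 CPM in Ai47 aSMCs and 2.17 to 7.32 in cortex. The pericyte markers, 9 in all, summed to 3350 to 6350 CPM in Ai47 aSMCs, 7360 and 10500 in Ai14 aSMCs and 267 to 759 in cortex. What part either cell type had in the values of the 10 genes was not tested.

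Genes that work with the 10 were followed in 3 lists. Of 23 other elastic fibre and microfibril genes, 14 were tested in Ai47 aSMCs against cortex, 5 were higher and 1 lower, near the 33.6% higher but below the 25.0% lower of all genes, with a median log2 fold change of 2.04 against 0.32 over all genes. Ltbp1, a latent TGF-beta binding protein of the microfibril and a relative of Ltbp4, was at 8700 to 13100 CPM in Ai47 aSMCs, 384 and 401 CPM in Ai14 aSMCs and 6.05 to 15.3 CPM in cortex. It was higher in Ai47 aSMCs by 10.1 ± 0.389 on the log2 scale (adjusted p = 1.01e-11) and in Ai14 aSMCs by 5.11 ± 0.520 (adjusted p = 4.55e-06). Where Ltbp4 was lowest among the aSMCs, Ltbp1 was thus highest, and each Ai47 column held 226083 to 310027 Ltbp1 counts. Fbln1 (fibulin-1) was at 73.1 to 127 CPM in Ai47 aSMCs but 0.396 and 0.0909 CPM in Ai14 aSMCs (log2 8.50 ± 2.08 between them, adjusted p = 0.00526). Its count was 2010 in 4 of the 6 Ai47 columns, and with the columns as 1 library the difference was 9.01 (adjusted p = 0.0977). Adamtsl4, which binds fibrillin microfibrils, was at 33.0 to 116 CPM in Ai47 aSMCs, 5.51 and 3.03 CPM in Ai14 aSMCs and 0 to 2.62 CPM in cortex. In Ai14 aSMCs, 2 of 17 tested genes of this list were higher than cortex and 0 lower by edgeR (2 lower at an unadjusted p under 0.05, 2 by DESeq2), against 3.97% of all genes higher, and in the libraries labelled astrocyte 1 was higher and 6 lower, against 14.6% and 19.8%.

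Of the 9 fibronectin receptors and partners, all were tested, and 4 were higher and 0 lower in Ai47 aSMCs than in cortex by edgeR (0 lower at an unadjusted p under 0.05, 0 by DESeq2), with a median log2 fold change of 1.31, against 33.6% higher, 25.0% lower and a median of 0.32 over all genes. Sdc4, a syndecan that binds fibronectin, was at 22100 to 33500 CPM in Ai47 aSMCs, 131 and 71.2 CPM in Ai14 aSMCs and 18 to 91.8 CPM in cortex (log2 9.16 ± 0.452 against cortex, adjusted p = 9.95e-11). The fibronectin-binding integrin subunit gene Itgav was at 159 to 207 CPM in Ai47 aSMCs against 15.3 to 55.6 CPM in cortex (log2 2.62 ± 0.326, adjusted p = 3.3e-06). Itga8, the integrin alpha-8 subunit gene, was at 0.730 to 35.8 CPM in Ai47 aSMCs, 134 and 151 CPM in Ai14 aSMCs and 0.125 to 3.87 CPM in cortex. The Ai47 libraries overlapped cortex. The mean was above cortex in both aSMC groups (log2 3.25 ± 0.927, adjusted p = 0.00651, and 6.76 ± 1.14, adjusted p = 0.000694). With the Ai47 columns as 1 library the first of these was 3.47. In Ai14 aSMCs 3 of the 9 were higher and 0 lower by edgeR (0 lower at an unadjusted p under 0.05, 0 by DESeq2), where 3.97% of all genes were higher, and in the libraries labelled astrocyte 1 was higher and 3 lower, where 14.6% and 19.8% were.

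A further list holds 13 genes of Gla processing and calcification, the setting in which Mgp acts. Of the 10 tested, 5 were higher and 1 lower in Ai47 aSMCs than in cortex (median log2 fold change 1.90, against 33.6%, 25.0% and 0.32 over all genes), and 3 higher and 1 lower in the libraries labelled astrocyte (14.6% and 19.8% of all genes). In Ai14 aSMCs 1 was higher and 0 lower by edgeR (0 lower at an unadjusted p under 0.05, 1 by DESeq2), where 3.97% of all genes were higher. Gas6, another Gla protein and a ligand of TAM receptors, was at 120 to 230 CPM in Ai47 aSMCs, 18.1 and 30.3 CPM in Ai14 aSMCs, 2.97 to 14.4 CPM in cortex and 109 to 299 CPM in the libraries labelled astrocyte. It was higher than cortex by 4.42 ± 0.419 in Ai47 aSMCs (adjusted p = 1.51e-07). Bmp4, whose product Mgp can bind, was at 67.0 to 109 CPM in Ai47 aSMCs and 1.37 and 0.212 CPM in Ai14 aSMCs, with 1840 or 1841 counts in 5 of the 6 Ai47 columns. Spp1 (osteopontin) was at 20.8 to 32.6 CPM in Ai47 aSMCs, from the same 573 or 574 counts in each column, and at 0.761 and 0.152 CPM in Ai14 aSMCs. The columns behind the differences of Bmp4 and Spp1 in Ai47 aSMCs are therefore not independent. Against cortex the log2 fold changes were 4.62 for Bmp4 and 6.97 for Spp1. With the Ai47 columns as 1 library they were 4.685 and 7.11.

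**Figure D5:**
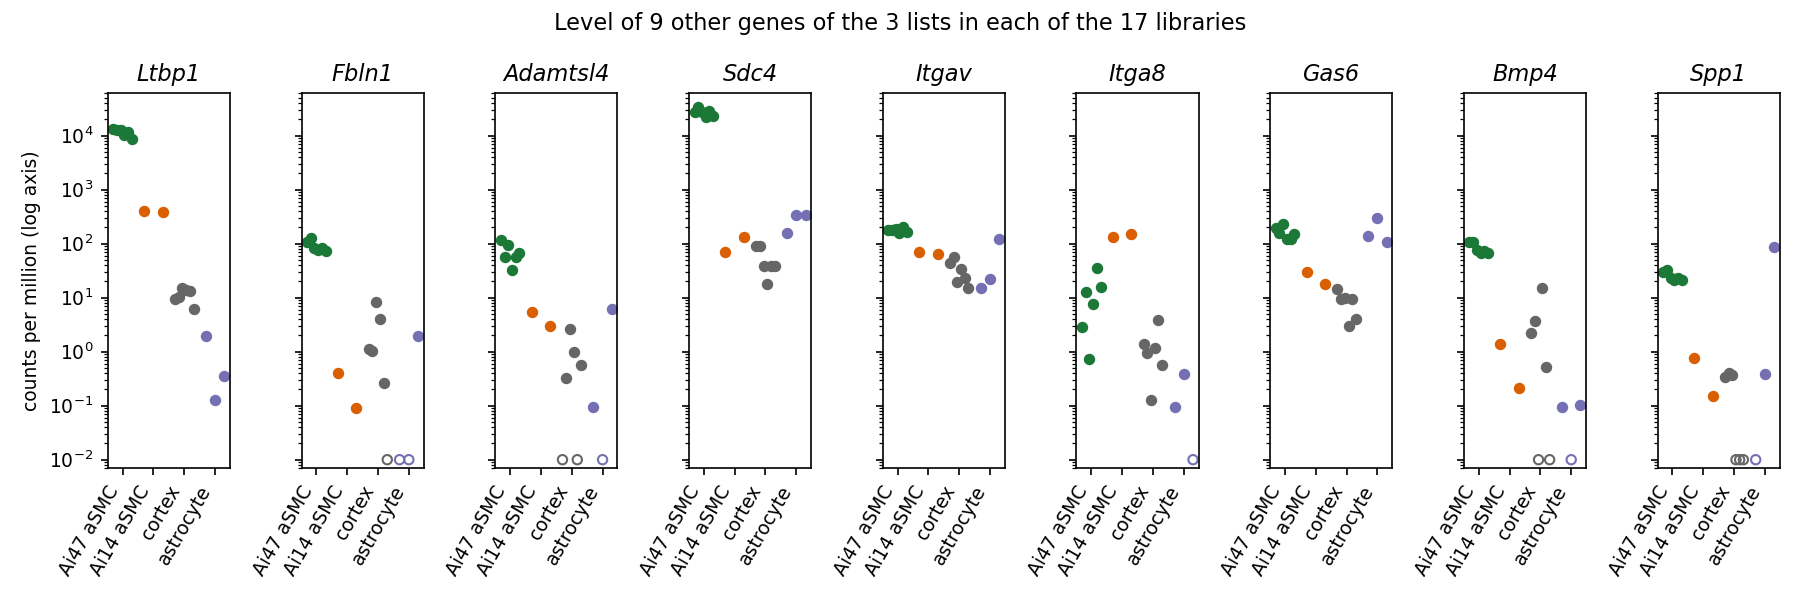
Level of the 9 genes named from the lists of partners in each library, in CPM on a log axis; open circles mark libraries with no counts. Ltbp1 and Sdc4 are at 8700 CPM or more in every Ai47 library, while Itga8 is highest in the 2 Ai14 libraries.

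Over the 17 libraries, the genes whose log2 level followed Eln most closely, among 6451 genes with a mean of at least 10 CPM, were Rhoj (Pearson r 0.934), Pygm (0.928), Gng11 (0.926), Ptp4a3 (0.922) and Mmp14 (0.922). Those most like Mgp were Ppp1r12b (0.956), Lims2 (0.946), Prss23 (0.945), Smtn (0.932) and Sparcl1 (0.916). Mmp14 encodes a membrane matrix metalloproteinase, and Ppp1r12b and Smtn encode proteins of smooth muscle contraction. Among the 10 genes themselves, Eln correlated with Lox at 0.856, Fn1 at 0.762 and Mgp at 0.754, and with Ltbp4 at -0.04, Fbn1 at -0.07 and Efemp2 at 0.08. The points are libraries of 4 groups that share scaling and, in Ai47 aSMCs, counts, so these values describe the groups.

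The genes lie on 10 chromosomes of GRCm38, by GENCODE M21. Eln is at chr5:134702593-134747323, Lox at chr18:52516067-52529867, Loxl1 at chr9:58287738-58313186, Fbln5 at chr12:101746565-101819055, Efemp2 at chr19:5473954-5482517, Fbn1 at chr2:125300594-125507993, Ltbp4 at chr7:27305136-27337692, Mfap4 at chr11:61485431-61488900, Fn1 at chr1:71585520-71653200 and Mgp at chr6:136872435-136875823. Values count reads over all exons of a gene. Mfap4 shares 89 bases of exon with Mapk7 on the opposite strand, which had 9 to 117 counts in the Ai47 libraries, and no source used here gives the strand setting of the counting, so reads of these overlaps cannot be told apart.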

How the data were processed

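Raw counts of 21640 genes in 17 libraries were used as deposited: whole numbers of reads per gene symbol, with no normalization by the authors. The study's methods name a TruSeq kit, FastQC, TopHat and htseq-count, and the labels name NuGEN Ovation kits, GRCm38 with Salmon 1.4.0, MultiQC 1.13, FastQC 0.11.9 and Trim Galore 0.6.7. The sources used here do not say which made these counts, nor the strand setting. The study lists the Ai47 aSMC and cortex samples. Its methods take the control from dissociated cortices, whereas the labels call it homogenate.

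Ai47 aSMCs and cortex were compared over their 12 libraries, and the other 5 comparisons came from 1 fit of all 17, with edgeR 4.0.16 in R 4.3.3 (filterByExpr, minimum count 10, TMM, quasi-likelihood F-test, Benjamini-Hochberg over all genes tested, threshold 0.05). Standard errors are the coefficient over the root of F. Levels are CPM after TMM over the 17 libraries, and lengths are exon unions of GENCODE M21, which matched 97.4% of symbols. A group without counts was set to 3 counts over the group. Intervals for 1 count are exact (Clopper-Pearson) at 95%, and both cover counting error only. Correlations use log2(CPM + 0.5). The test was checked on simulated data with independent libraries and the same spread in every group. That check does not cover columns that share counts or groups of unlike spread.

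The 10 genes and the lists of partners and markers were chosen with earlier results of these data known. Named are all 10 genes, the 2 highest and the 2 most changed genes of each list of partners, and the 5 genes most like Eln and Mgp. Single markers were chosen after their values were seen. Alternatives were other scalings and filters, DESeq2 1.42.0, a robust spread, other sample sets, the Ai47 columns as 1 library, replicate numbers as a block and leaving out each replicate. Libraries with the same number did not deviate together (correlations -0.0447 to 0.0351). Tables and figures were made in Python 3.11.15 (matplotlib 3.10.9, scipy 1.17.1, pandas 2.3.3).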

Additional observations from a re-analysis of the deposited data

Results flagged for a closer look

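In each group of 6, the library farthest from the rest was compared with Dixon's 95% critical value for every gene. Independent values of a normal distribution pass it in about 1 of 20 groups. Levels near the floor and Ai47 columns that share counts are not such values. That rate therefore does not apply here, and the screen lists libraries that stood apart without measuring an excess. Of the 20 gene and group pairs screened, 10 passed. In Ai47 aSMCs these were Fbn1 in replicate 4 (3.13 CPM, the others 0.0728 to 0.114), Fbln5 in replicate 5 (1.33 CPM, the others 0.284 to 0.516), Ltbp4 in replicate 2 (9.40 CPM, the others 0.930 to 2.39), Mfap4 in replicate 1 (3.41 CPM, the others 0 to 0.0368), Loxl1 in replicate 4 (0.295 CPM, the others 0.0404 to 0.109) and Mgp in replicate 1, which was low (7.13 CPM, the others 14 to 16.7). In cortex they were Fbn1 in replicate 4 (9.10 CPM, the others 1.59 to 3.31), Mfap4 in replicate 6 (3.40 CPM, the others 0.557 to 1.55), Lox in replicate 2 (7.32 CPM, the others 0.593 to 1.94) and Loxl1 in replicate 1 (0.570 CPM, the others 0 to 0.189).

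The difference from cortex was not the same in the 2 aSMC groups for 2 genes, tested as a difference of the effects in edgeR's fit of all 17 libraries. The log2 effect in Ai47 minus that in Ai14 aSMCs was -4.20 for Ltbp4 (adjusted p = 0.00127) and -3.07 for Mgp (adjusted p = 0.00319). Since both effects share the cortex libraries, this is the comparison of the aSMC groups itself, and with the Ai47 columns as 1 library, a fit in which the lone library is assumed to vary like the other groups, the differences were -3.84 and -2.50 (adjusted p 0.237 and 0.467).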

How the results depend on the processing

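Counting errors limit Loxl1, Mfap4 and Fbn1 in aSMCs and all but Efemp2 and Fn1 in the libraries labelled astrocyte, and 2 Ai14 libraries give little power. Where a call or direction changed, the cause was not tested. Of 507 values of single genes under settings that leave out no single replicate, 437 kept their direction and side of the threshold, 40 lost the call, 8 gained one and 22 changed sign. With 1 replicate left out these were 407, 30, 2 and 14 of 453.

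With library totals alone, Fn1 and Mgp in Ai47 aSMCs versus cortex were -0.72 and -0.93, Fbln5 and Fn1 in Ai14 aSMCs versus cortex 0.69 and 0.75, Lox in astrocytes versus cortex 0.25, Eln, Efemp2, Mfap4 and Fn1 in Ai47 versus Ai14 aSMCs -2.05, -1.31, -0.11 and -1.46, Mfap4 in Ai14 aSMCs versus astrocytes 0.043, and Fbn1, Ltbp4 and Mfap4 in Ai47 aSMCs versus astrocytes -1.63, -1.80 and -0.064. The counts of genes called were then 1 higher (Ai47 versus cortex), 5 lower (Ai47 versus Ai14), 0 lower (Ai14 versus astrocytes) and 3 higher (Ai47 versus astrocytes), while the same counts over all genes moved from 3877 to 2279, 2392 to 6604, 531 to 350 and 3893 to 1830. With median-of-ratios size factors, Ltbp4 in Ai14 aSMCs versus cortex was -0.15 and Fbn1 in Ai47 aSMCs versus astrocytes -0.46, and with DESeq2 they were -0.15 and -0.47. Without both cortex replicates 1 and 2, Fbln5 and Ltbp4 in Ai14 aSMCs versus cortex were 0.27 and -0.068, and Lox in astrocytes versus cortex 0.79. With the Ai47 columns as 1 library, 2 genes were higher and 1 lower than cortex, 0 lower than Ai14 aSMCs, and 3 higher and 0 lower than astrocytes, with the lone library assumed to vary like the other groups. With only the 2 groups compared, Ai47 versus Ai14 gave 1 higher and 4 lower, Ai14 versus astrocytes 0 and 0, a fit in which no gene of all was called, and Ai47 versus astrocytes 3 higher. Without a filter, Ai14 versus astrocytes gave 0 lower.

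The replicate numbers as a block could be used for groups that share numbers. The replicate block gave Fbn1 and Mfap4 at -1.52 and -0.51 in Ai47 aSMCs versus astrocytes and 0 lower there, and 3 higher and 3 lower in Ai47 aSMCs versus cortex, where Fn1 (adjusted p = 0.06) and Fbln5 (adjusted p = 0.0603) lost their calls and Mfap4 gained one (adjusted p = 0.0155). Since same-numbered libraries did not deviate together, they share only a number. No paired analysis was possible for the Ai14 libraries, because their numbers 7 and 8 occur in no other group.

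With 1 replicate left out, the genes called numbered 3 to 4 higher and 2 to 3 lower in Ai47 aSMCs versus cortex, 0 to 2 higher in Ai14 aSMCs versus cortex, 4 to 6 lower in astrocytes versus cortex, 1 to 3 lower in Ai47 versus Ai14 aSMCs, 5 to 6 higher and 0 to 1 lower in Ai14 aSMCs versus astrocytes, and 4 to 5 higher and 0 to 1 lower in Ai47 aSMCs versus astrocytes. Signs changed for Fbln5 (-0.49 to 0.11) and Ltbp4 (-0.039 to 0.33) in Ai14 aSMCs versus cortex, Lox in astrocytes versus cortex (-8.04 to 0.43), Mfap4 in Ai47 versus Ai14 aSMCs (-2.75 to 4.39), in Ai14 aSMCs versus astrocytes (-2.16 to 1.37) and in Ai47 aSMCs versus astrocytes (-3.09 to 4.02), and Fbn1 in the last (-2.21 to 2.05).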
